A study of Mus musculus with 18 samples.

Results

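The data are gene counts of retinal microglia from mice treated with a virus carrying transforming growth factor beta 1 (TGFB1) or with a control virus. All 7 TGFB1 and all 7 GFP microglia libraries were compared, 14 of the 18 libraries of the series. They were chosen by their titles, with earlier results of these data known. The other 4 libraries hold non-microglia, 2 per treatment, and enter only where stated. The mice were rd1 on the FVB strain, which lose their rods and then their cones because of a Pde6b mutation, and were at postnatal day 30. The injection was subretinal, with AAV8-GFP alone in the GFP group and AAV8-GFP together with AAV8-TGFB1 in the TGFB1 group, so that both groups carried the GFP virus. The TGFB1 group differed from the GFP group in the added virus as well as in TGFB1, and these cannot be told apart here. Retinas were dissociated with papain, cells were stained with antibodies and sorted into Buffer TCL, and polyA RNA was sequenced after a modified Smart-Seq2 protocol. The labels do not give the promoter or the target cells of either virus, the species of the TGFB1 sequence, or whether the libraries of a group are separate animals. The p-values therefore reflect the scatter among these libraries, part of which may be technical. The comparison asks how retinal microglia differ after TGFB1 delivery to a degenerating retina.

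TGF-beta is secreted in a latent complex, is released by integrins and proteases, and signals through the receptors TGFBR1 and TGFBR2 to SMAD transcription factors. Microglia, the resident macrophages of brain and retina, depend on this signal for their resting gene expression and lose much of it when the receptor is deleted. In retinal degeneration microglia move among the dying photoreceptors, take up debris and switch on a set of genes for phagocytosis, lysosomes and antigen presentation, known as the disease-associated state.

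The sorted cells carried the markers of their label. Levels are in CPM (counts per 1000000). Sums of markers and the floor use raw library totals, and single genes use library sizes scaled by the TMM method. The 12 microglia markers, among them Tmem119, P2ry12 and Cx3cr1, summed to 35864 to 42356 CPM in TGFB1 and 36335 to 41242 CPM in GFP microglia. In the 2 GFP non-microglia libraries these markers summed to 86.8 and 89.3 CPM. All 12 had a 95% interval of the fold change within 1.5-fold, and 0 were called by edgeR (1 at unadjusted p under 0.05 and called by DESeq2, Tmem119). The TGFB1 libraries held 1582451 to 3044182 and the GFP libraries 1766307 to 3064027 counts, and 3 counts, taken as the floor of a library, equal 0.979 to 1.90 CPM. Markers of other retinal cells summed to 664 to 1191 CPM in TGFB1 and 694 to 1610 CPM in GFP microglia, against 24742 to 27768 CPM in the non-microglia; GFP replicates 2 and 5 and TGFB1 replicate 6 were highest and also stood farthest apart on the first principal components. In such bulk samples fewer cells of a type and less RNA per cell cannot be told apart. The sum of other-cell markers, which leaves out Apoe and Vim, holds genes that were high in every microglia library. Gngt2 had 193 to 397 counts in TGFB1 and 195 to 455 in GFP libraries, against 579 in the 4 non-microglia libraries together. Glul (292 to 791 counts) and Pde6h (159 to 380) were also in the sum. It is therefore not a measure of other-cell RNA alone. The share of counts assigned to 3 genes that hold ribosomal RNA repeats ran from 5.66% to 10.1% in the TGFB1 group and from 8.34% to 11.3% in the GFP group, with TGFB1 replicates 2, 7 and 8 below every GFP library. Xist RNA was present in replicates 2, 7 and 8 of both treatments and Y chromosome RNA in the others, so this difference is balanced between the groups.

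**Figure D1:**
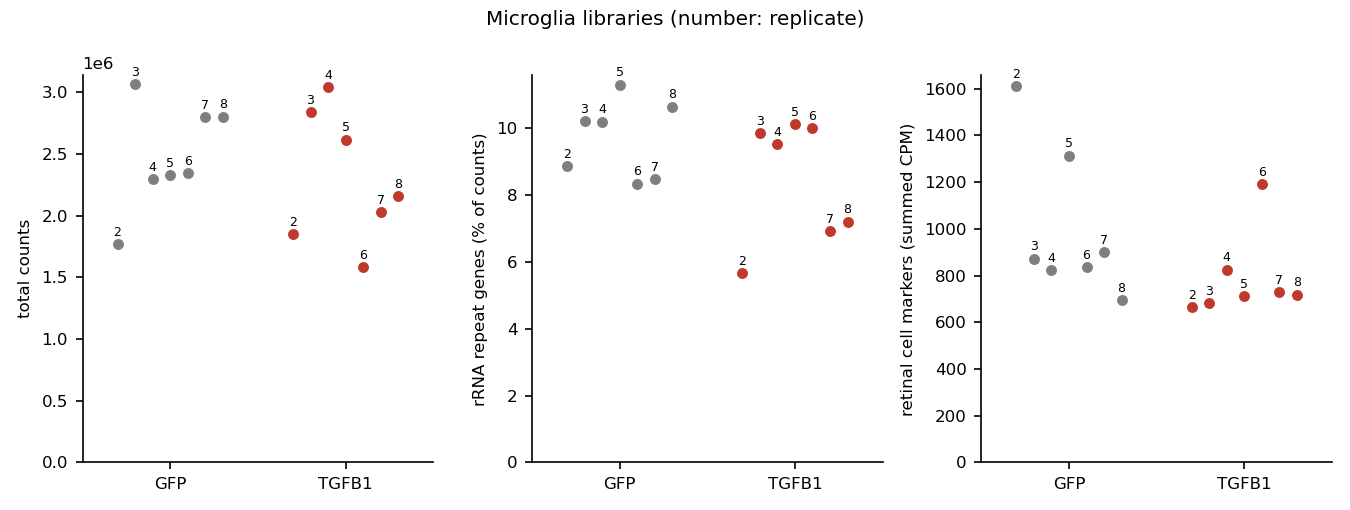
Total counts, percent of counts in 3 ribosomal RNA repeat genes and summed CPM of markers of other retinal cells in each of the 14 microglia libraries, GFP in grey and TGFB1 in red, numbered by replicate. GFP replicates 2 and 5 and TGFB1 replicate 6 have the highest levels of other-cell markers (1610, 1314 and 1191 CPM), and TGFB1 replicates 2, 7 and 8 the lowest ribosomal RNA shares.

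TGFB1 microglia differed from GFP microglia in few genes and by modest amounts. Of 10970 genes tested, 26 rose (0.237%) and 8 fell (0.0729%), 34 in all (0.31%; edgeR quasi-likelihood F test, Benjamini-Hochberg adjusted p under 0.05). The change was under 1.5-fold for 24 of the 34, from 1.5-fold to under 2-fold for 6 and at least 2-fold for 4, namely Ctsw, Cd300lb, Lgals3 and Wfdc17. The genes that rose include Csf1, Clec7a, H2-DMa, Tnfsf13b and Capg, and those that fell include Gas6, Tgfbi, Naaa, Fcgrt and the gene pair Tmem176a and Tmem176b. DESeq2, used as an alternative test, gave an adjusted p for 2909 genes, so its counts of calls leave out the members of a list that have none. It gave one to 3 of 18 interferon response, 5 of 16 cytokine and inflammasome, 7 of 24 cell cycle and 3 of 9 TGF-beta ligand and activation genes. Limma voom, another alternative, called 18 genes higher and 7 lower and kept 24 of the 34 calls. It called none of Itgax, Tmem119, Tgfbr1, Spp1, H2-DMb2, Ccl4 and Dusp1, which DESeq2 called. The median log2 fold change over all genes was 0.00, and 50.7% of genes were on the positive side. At unadjusted p under 0.05 (edgeR), 428 of the 10970 genes were higher and 302 lower. For 7595 of the genes tested (69.2%) the 95% interval lay within 1.5-fold in either direction, so that larger changes of most genes lie outside their intervals at this depth.

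The 7 TGFB1 and 7 GFP libraries did not overlap in CPM for 25 genes (0.228% of those tested), 20 with TGFB1 above and 5 with TGFB1 below. Of these, 14 were called, among them Ctsw, H2-DMa, Tnfsf13b, Csf1, Cd34, Mthfd2, Tspan18, Dock9, Cd300lb and Slamf8 above, and Tgfbi, Naaa and Fcgrt below. For the other called genes 1 or more libraries of the groups overlapped, but all 7 TGFB1 libraries lay beyond the GFP mean in each of the 34, which selection by the test favours.

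The summed other-cell markers and the share of ribosomal RNA differed between libraries, so both were also entered as covariates. With the level of other-cell markers as a covariate 20 of the 34 calls ended: Cd34, Fcgrt, Siglecf, Sgk1, Tspan18, Pld3, Tgm2, Dock9, Csf1, Lgals3, Emp3, Clec7a, Cd300lb, Slamf8, Slco4a1, Axl, Tlr13, Man2b1, Adgrg5 and Tspan7. With the share of ribosomal RNA repeats 13 ended: Siglecf, Fgr, Pld3, Lgals3, Emp3, Clec7a, Cd300lb, Slamf8, Slco4a1, Axl, Tlr13, Wfdc17 and Tspan7. No estimate of the 34 changed sign in either fit, which their selection in the same libraries favours.

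**Figure D2:**
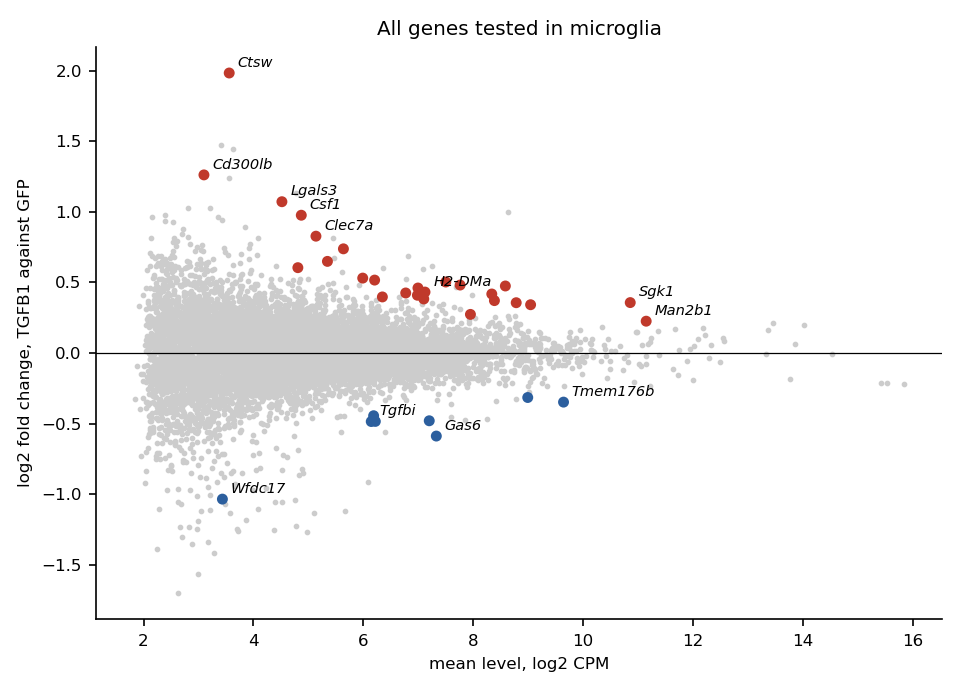
Log2 fold change of TGFB1 against GFP microglia (y axis) by mean log2 CPM (x axis) for the 10970 genes tested, with the 26 genes that rose in red, the 8 that fell in blue and the others in grey. Called genes with large changes, such as Ctsw, sit at low levels, and those at high levels, such as Man2b1 and Sgk1, changed by little.

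Among lysosomal and protease genes, Ctsw changed most. It encodes cathepsin W, a cysteine protease best known from cytotoxic lymphocytes. Ctsw ranged from 1.37 to 6.64 CPM (median 4.94) in GFP and from 13.6 to 22.5 CPM (median 20.1) in TGFB1 microglia, which rest on 3 to 18 and 20 to 56 counts per library. The lowest TGFB1 library was above the highest GFP library (log2 fold change 1.98, 95% interval 1.51 to 2.45, adjusted p = 3.68e-05). Leaving out any 1 library kept the estimate between 1.83 and 2.09 and the call in each fit. Of 18 T and NK cell markers 0 passed the filter on low counts. Their sum was 3.44 to 10.4 CPM in TGFB1 and 4.90 to 7.86 CPM in GFP microglia, where the GFP range is close to that of Ctsw. Nkg7 and Gzmb had 0 counts in all 14 libraries. Klrb1c had counts in all 14 (3 to 10 in TGFB1 and 6 to 12 in GFP libraries) and Lck in 13. A part of lymphocytes in the Ctsw level was not tested. Of the 12 cathepsins tested Ctsw alone was called; 10 had positive log2 fold changes and the median was 0.09, against 0.00 for all genes, with 11 of 12 intervals within 1.5-fold.

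Pld3, whose product trims single-stranded nucleic acids in the lysosome, rose from 327 to 449 CPM (median 389) in GFP to 434 to 569 CPM (median 483) in TGFB1 microglia, with 6 TGFB1 libraries above every GFP library (log2 fold change 0.36, SE 0.07, adjusted p = 0.0154). Man2b1, the lysosomal alpha-mannosidase, had a smaller rise from a median of 2103 to 2452 CPM (0.23, adjusted p = 0.0438). Naaa, an acid amidase that breaks down palmitoylethanolamide, moved the other way, from 144 to 205 CPM (median 164) in GFP to 111 to 140 CPM (median 122) in TGFB1 microglia. Its groups did not overlap (log2 fold change -0.48, adjusted p = 0.00654). In the list of lysosomal hydrolases and membrane proteins, 38 genes were tested, Man2b1 rose, Naaa fell, 26 were positive and the median was 0.06. The call of Pld3 ended in 3 and that of Man2b1 in 11 of the 14 fits without 1 library (largest adjusted p = 0.0687 without TGFB1 replicate 8 and 0.122 without TGFB1 replicate 4).

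Antigen presentation genes held 1 call, H2-DMa. The gene encodes the alpha chain of DM, which exchanges peptides on MHC class II in endosomes. It ranged from 103 to 131 CPM (median 117) in GFP and from 149.8 to 169 CPM (median 159) in TGFB1 microglia, without overlap (log2 fold change 0.43, 95% interval 0.29 to 0.57, adjusted p = 0.00522). Of 13 genes tested in the MHC class II list 12 were positive, 6 of them at unadjusted p under 0.05, with a median of 0.17 against 0.00 for all genes. Of all 10970 genes tested, 428 were higher at unadjusted p under 0.05. H2-DMb1 and H2-DMb2, close copies that encode DM beta chains and may share reads, both had a log2 fold change of 0.32 (adjusted p = 0.225) and did not pass, while DESeq2 called H2-DMb2 besides H2-DMa. H2-Ab1, a chain of the peptide-presenting molecule, was at 0.68 with a wide interval (0.13 to 1.23, adjusted p = 0.609). The MHC class I list had 0 calls among 20 genes by edgeR or DESeq2 (4 higher at unadjusted p under 0.05), 15 of them positive (median 0.06). Fcgrt, the neonatal Fc receptor that recycles IgG and albumin, fell from 73.4 to 101 CPM (median 87.01) in GFP to 53.2 to 67.8 CPM (median 64.0) in TGFB1 microglia, without overlap (-0.49, adjusted p = 0.00840), and was the 1 call among 8 Fc receptor genes, of which 2 were positive.

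Secreted factors changed in both directions. Csf1, the ligand of the receptor that microglia need to survive, ranged from 10.8 to 26.8 CPM (median 21.8) in GFP and from 27.9 to 56.2 CPM (median 36.4) in TGFB1 microglia. The groups did not overlap, and TGFB1 replicate 2 was highest (log2 fold change 0.98, 95% interval 0.58 to 1.37, adjusted p = 0.0206). Its receptor gene Csf1r stayed within a narrow interval around no change (-0.00, 95% interval -0.09 to 0.08). Tnfsf13b, which encodes the B cell survival factor BAFF, ranged from 97.3 to 121 CPM (median 110.5) in GFP and from 133 to 156 CPM (median 146) in TGFB1 microglia, also without overlap (0.41, adjusted p = 0.00599). Lgals3, the gene of galectin-3, a lectin of phagocytic macrophages, ranged from 10.3 to 22.2 CPM (median 12.3) and from 15.9 to 47.0 CPM (median 32.6), with 6 of 7 TGFB1 libraries above every GFP library (1.07, adjusted p = 0.0256). Csf1 lost its call in 4 and Lgals3 in 10 of the 14 fits without 1 library (largest adjusted p = 0.0755 and 0.0871, both without GFP replicate 3).

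Gas6, which bridges phosphatidylserine on dying cells to the TAM receptors, ranged from 149 to 229 CPM (median 188) in GFP and from 100.04 to 153 CPM (median 127) in TGFB1 microglia. Only the highest TGFB1 library reached into the GFP range (log2 fold change -0.59, 95% interval -0.79 to -0.39, adjusted p = 0.00599). Axl, a TAM receptor, rose from a median of 264 to 369 CPM (range 228 to 332 and 310 to 432 CPM; 0.42, adjusted p = 0.0335), so the ligand gene and a receptor gene moved in opposite directions. Mertk, the TAM receptor of resting microglia, and Pros1, the other bridging ligand, were close to no change at -0.04 (95% interval -0.19 to 0.10) and 0.03 (-0.09 to 0.16). In the list of efferocytosis genes Axl and Gas6 were the 2 calls among 16 tested, with a median of -0.03. Wfdc17, which encodes a small secreted protein of macrophages, fell from a median of 15.1 to 6.72 CPM (-1.04, adjusted p = 0.0434). GFP replicate 2, at 5.72 CPM, lay far below the other GFP libraries and inside the TGFB1 range of 5.18 to 10.5 CPM. The call of Axl ended in 10 and that of Wfdc17 in 11 of the 14 fits without 1 library (largest adjusted p = 0.112 without GFP replicate 3 and 0.143 without GFP replicate 7) and that of Gas6 in none.

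**Figure D3:**
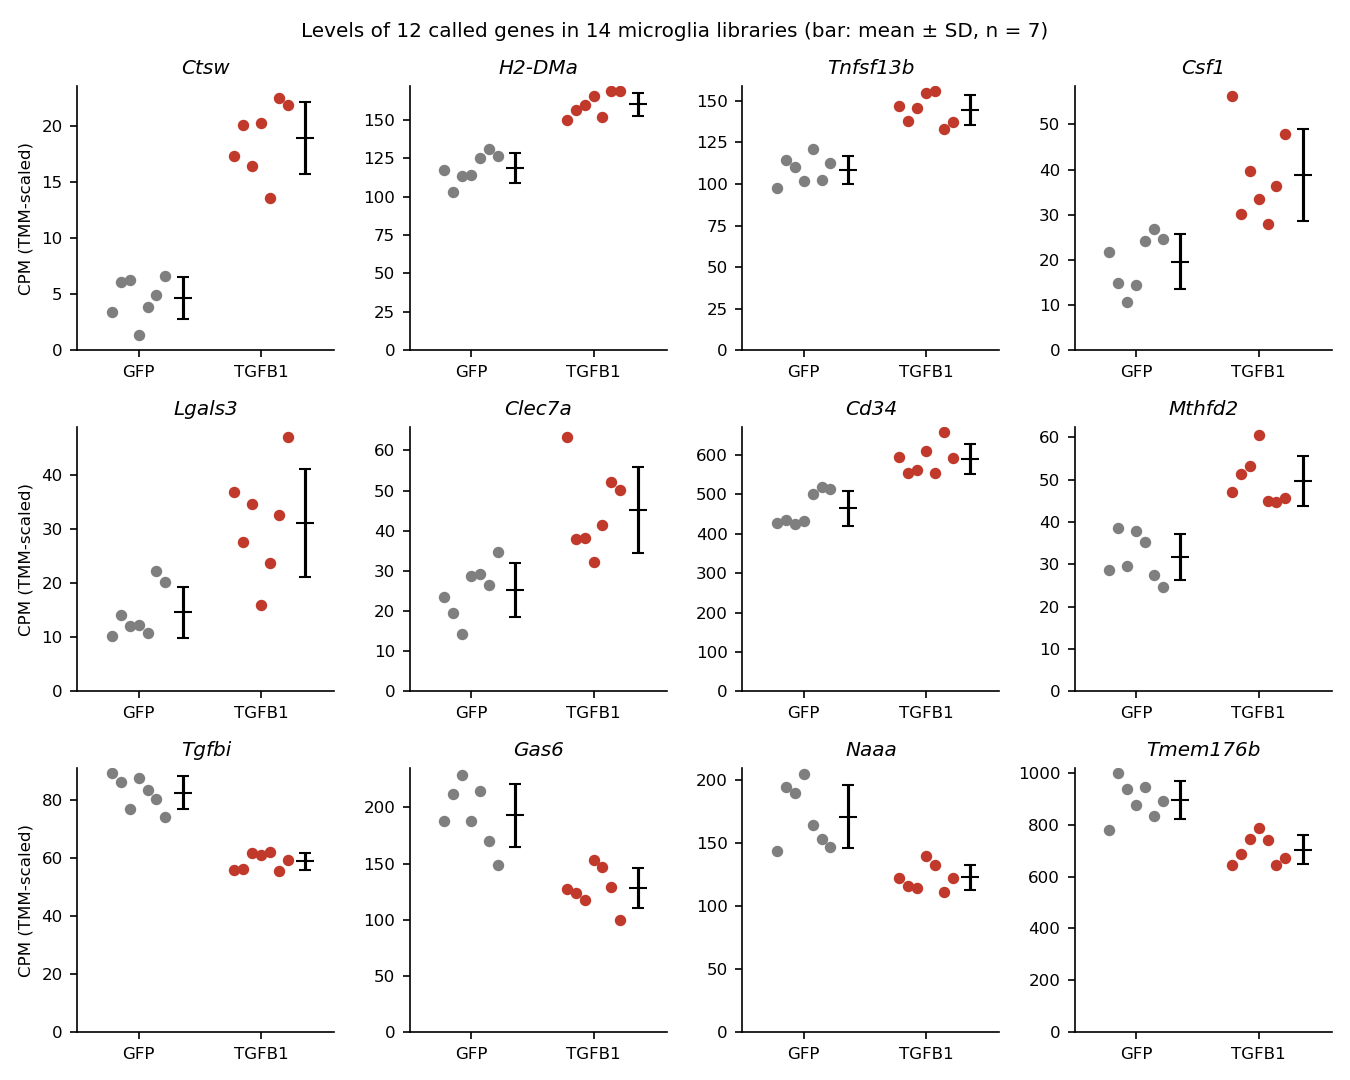
CPM of 12 called genes in each of the 7 GFP (grey) and 7 TGFB1 (red) microglia libraries, with bars for the mean and SD of each group. Ctsw, H2-DMa, Tnfsf13b, Csf1, Cd34 and Mthfd2 have every TGFB1 library above every GFP library, Tgfbi and Naaa every TGFB1 library below, and Lgals3, Clec7a, Gas6 and Tmem176b overlap.

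Several of the genes that rose encode surface receptors. Clec7a, which encodes dectin-1, a sensor of fungal beta-glucan, and is a marker of disease-associated microglia, ranged from 14.4 to 34.7 CPM (median 26.5) in GFP and from 32.3 to 63.4 CPM (median 41.5) in TGFB1 microglia, with 1 TGFB1 library inside the GFP range (log2 fold change 0.83, adjusted p = 0.0256). Cd300lb, an activating receptor of the CD300 family, ranged from 3.05 to 6.37 CPM and from 6.81 to 21.6 CPM, without overlap but near the floor of 3 counts (1.26, 95% interval 0.72 to 1.81, adjusted p = 0.0256). Siglecf, an inhibitory receptor for sialic acid, rose from a median of 151 to 220 CPM with 5 TGFB1 libraries above every GFP library (0.50, adjusted p = 0.00840). Cd34, a sialomucin of progenitor and endothelial cells, ranged from 425 to 519 CPM in GFP and from 554 to 659 CPM in TGFB1 microglia, without overlap (0.34, adjusted p = 0.00795). Endothelial markers summed to 27.9 to 106 CPM in TGFB1 and 41.4 to 174 CPM in GFP microglia, against 2222 and 3122 CPM in the GFP non-microglia. With all 18 libraries scaled together, Cd34 had a mean of 496 CPM in GFP microglia and 17.5 CPM in GFP non-microglia. A part of endothelial RNA in the Cd34 level was not tested.

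Slamf8, a SLAM family receptor of macrophages, ranged from 63.3 to 75.8 CPM in GFP and from 76.6 to 104 CPM in TGFB1 microglia, without overlap (log2 fold change 0.40, adjusted p = 0.0256). Tlr13, an endosomal sensor of bacterial ribosomal RNA, rose from a median of 280 to 370 CPM (0.37, adjusted p = 0.0344), as the 1 call among 24 genes of Toll-like receptor and NF-kappaB signalling (median 0.04). Adgrg5, an adhesion G protein-coupled receptor, was just inside the threshold at 0.38 (adjusted p = 0.0495). Fgr, a Src family kinase of myeloid cells, rose from 22.7 to 51.9 CPM (median 39.5) in GFP to 50.7 to 72.6 CPM (median 65.2) in TGFB1 microglia, with 5 TGFB1 libraries above every GFP library (0.74, adjusted p = 0.0154). Without 1 library the call ended in 3 of 14 fits for Fgr, 6 for Clec7a and Cd300lb, 9 for Slamf8, 10 for Tlr13 and 11 for Adgrg5, with a largest adjusted p = 0.146 (Adgrg5, without GFP replicate 3).

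Other membrane genes moved in both directions. Lhfpl2, a tetraspan membrane protein gene, ranged from 245 to 379 CPM (median 326) in GFP and from 369.8 to 506 CPM (median 446) in TGFB1 microglia (log2 fold change 0.47, adjusted p = 0.00599). The tetraspanin genes Tspan18, which did not overlap between the groups (0.52, adjusted p = 0.0132), and Tspan7 (0.27, adjusted p = 0.0495) rose, and Emp3, an epithelial membrane protein family gene, fell (-0.44, adjusted p = 0.0256). Tmem176a and Tmem176b encode related membrane proteins of myeloid cells and lie head to head on chromosome 6, where their annotated spans overlap by 578 bases. Tmem176b ranged from 780.2 to 999.9 CPM (median 891) in GFP and from 643 to 788 CPM (median 688) in TGFB1 microglia (-0.35, adjusted p = 0.00644). Tmem176a ranged from 492.9 to 628 CPM (median 569) and from 405 to 498 CPM (median 437) (-0.32, adjusted p = 0.0138). In both genes 6 of 7 TGFB1 libraries were below every GFP library, and the 2 are the only called genes within 100000 bases of another. The strand setting of the counting is not given, so reads from the overlap cannot be assigned to one of them with certainty. Tspan18 lost its call in 1, Tmem176a in 2, Emp3 in 8 and Tspan7 in 12 of the 14 fits without 1 library (largest adjusted p = 0.148 for Tspan7, without GFP replicate 7), while Lhfpl2 and Tmem176b lost theirs in none.

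Cytoskeletal and metabolic genes were also among the calls. Capg caps the growing end of actin filaments and rose from 149 to 220 CPM (median 182) in GFP to 197 to 286 CPM (median 257) in TGFB1 microglia (log2 fold change 0.48, adjusted p = 0.00599). Dock9, an exchange factor for the GTPase Cdc42, ranged from 19.6 to 25.2 CPM and from 29.1 to 39.3 CPM, without overlap (0.60, adjusted p = 0.0186). The actin and motility list as a whole stayed at a median of -0.00, with Capg the 1 call among 23. Tgm2, which crosslinks proteins outside and inside the cell, rose from a median of 106 to 150 CPM (0.46, adjusted p = 0.0175); it shares 21.8% of its exon bases with the predicted gene Gm20412. Mthfd2, a mitochondrial enzyme of folate metabolism, ranged from 24.7 to 38.6 CPM (median 29.6) and from 44.6 to 60.6 CPM (median 47.0), without overlap (0.65, 95% interval 0.41 to 0.89, adjusted p = 0.00795), and was the 1 call among 18 genes of the one-carbon and ATF4 list (median -0.01). Sgk1, a kinase induced by serum and glucocorticoids, rose from a median of 1568 to 2160 CPM (0.36, adjusted p = 0.00977), and Slco4a1, an organic anion transporter, from 51.0 to 68.5 CPM (0.53, adjusted p = 0.0296). Dock9 and Tgm2 lost their calls in 4 and Slco4a1 in 9 of the 14 fits without 1 library (largest adjusted p = 0.0995 for Slco4a1, without TGFB1 replicate 7).

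**Figure D4:**
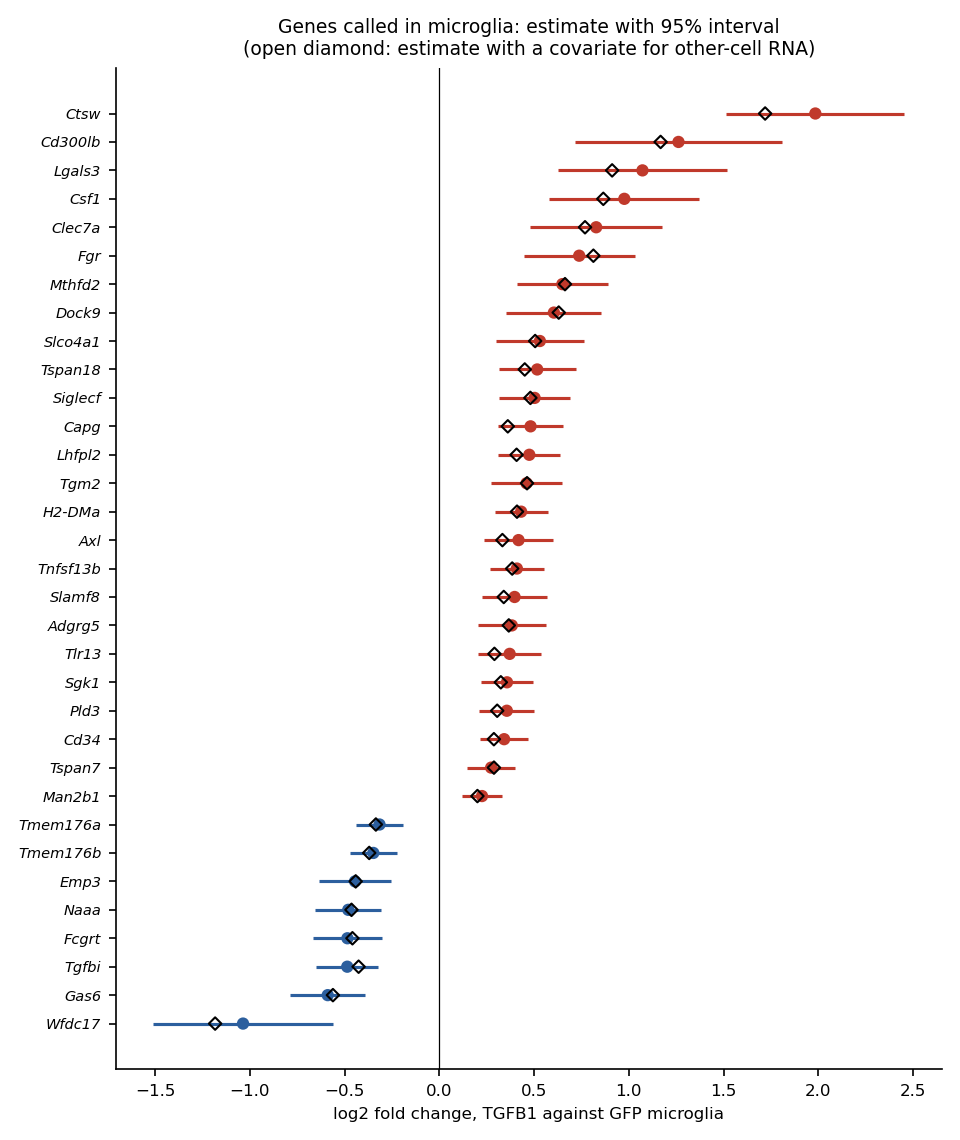
Log2 fold change with its 95% interval for 33 of the 34 called genes (x axis), TGFB1 against GFP microglia. An open diamond marks the estimate after a covariate for the summed other-cell markers. Every diamond is on the same side of 0 as its point, from 1.72 for Ctsw to -1.18 for Wfdc17, which selection of the genes in the same libraries favours.

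Genes of TGF-beta signalling showed 1 call in the edgeR fit by treatment only, and a block for the replicate number added Tgfbr1 and Fn1. Tgfbi, a secreted matrix protein named for its induction by TGF-beta, ranged from 74.2 to 89.3 CPM (median 83.5) in GFP and from 55.6 to 62.0 CPM (median 59.4) in TGFB1 microglia. The groups did not overlap, and the TGFB1 libraries were lower (log2 fold change -0.49, 95% interval -0.65 to -0.32, adjusted p = 0.00599). Among 15 TGF-beta target genes tested, 12 were positive, the median was 0.13 and Tgfbi was the only call; Smad7 (-0.06), Skil (0.08) and Pmepa1 (0.05) all had intervals that include 0. Spp1 (0.998, 95% interval 0.34 to 1.65, adjusted p = 0.403), Itgae (0.98, 0.26 to 1.70, adjusted p = 0.465) and Fn1 (0.82, 0.21 to 1.42, adjusted p = 0.498) had large estimates that did not pass, although DESeq2 called Spp1 (adjusted p = 0.0404). Tgif1 at 0.13 (adjusted p = 0.880) and Klf10 at -0.24 (adjusted p = 0.901) did not pass either.

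Receptors and SMAD genes had 0 calls among 18 tested by edgeR (2 higher at unadjusted p under 0.05), and 16 of the 18 intervals lay within 1.5-fold (median 0.05). Tgfbr1, the signalling receptor, ranged from 327 to 444 CPM (median 391) in GFP and from 436 to 508 CPM (median 481) in TGFB1 microglia, overlapping slightly (log2 fold change 0.26, 95% interval 0.12 to 0.41, adjusted p = 0.142; called by DESeq2 at adjusted p = 0.0210). Ski (0.18), Tgif1 (0.13), Bambi (0.25), Smad3 (-0.16) and Smad2 (-0.12) did not pass either. Among 9 ligand and activation genes there were also 0 calls by edgeR or DESeq2 (1 lower at unadjusted p under 0.05; median 0.05); Nrros, which holds latent TGF-beta on microglia, was at -0.18 (adjusted p = 0.707) and Tgfb2 at -0.58 with an interval from -1.90 to 0.74. Reads assigned to Tgfb1 itself ranged from 8.19 to 14.9 CPM (median 11.5) in GFP and from 8.63 to 23.5 CPM (median 11.6) in TGFB1 microglia. These groups overlap widely (0.20, 95% interval -0.27 to 0.66, adjusted p = 0.931). In the 2 TGFB1 non-microglia libraries Tgfb1 was at 151 and 131 CPM, and it was at 0 in the 2 GFP non-microglia libraries, whose floor of 3 counts is 1.15 and 1.29 CPM.

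Promoter sequence is shown for the 4 called genes with the smallest p that have an entry and at least 100 bases free of annotated exons. The bases lie in the 250 before the RefSeq start on GRCm38.p6, 5′ to 3′ on the strand of the gene, with the SMAD-binding letters CAGAC or their reverse complement in capitals. H2-DMa is at chr17:34122635-34122821 on the plus strand, Tgfbi at chr13:56609336-56609522 on the plus strand, Gas6 at chr8:13494536-13494785 on the minus strand and Tnfsf13b at chr8:10006217-10006466 on the plus strand.
H2-DMa: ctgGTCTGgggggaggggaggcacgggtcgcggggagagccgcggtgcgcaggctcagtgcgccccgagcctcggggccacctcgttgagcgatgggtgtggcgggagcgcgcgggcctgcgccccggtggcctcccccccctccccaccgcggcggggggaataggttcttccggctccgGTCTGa
Tgfbi: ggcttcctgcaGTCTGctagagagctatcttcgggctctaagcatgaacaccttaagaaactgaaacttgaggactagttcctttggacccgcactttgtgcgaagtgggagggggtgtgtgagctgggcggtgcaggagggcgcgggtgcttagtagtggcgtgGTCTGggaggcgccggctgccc
Gas6: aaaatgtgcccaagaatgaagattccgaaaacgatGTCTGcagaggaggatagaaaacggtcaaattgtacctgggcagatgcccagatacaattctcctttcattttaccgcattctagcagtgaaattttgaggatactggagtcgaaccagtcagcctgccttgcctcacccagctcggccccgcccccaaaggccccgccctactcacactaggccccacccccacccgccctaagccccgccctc
Tnfsf13b: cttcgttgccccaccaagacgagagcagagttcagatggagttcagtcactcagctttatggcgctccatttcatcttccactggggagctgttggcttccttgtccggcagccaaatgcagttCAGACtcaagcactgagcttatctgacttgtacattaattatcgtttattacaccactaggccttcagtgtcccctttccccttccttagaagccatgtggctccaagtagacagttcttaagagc
The stretches of H2-DMa and Tgfbi hold these letters 2 times each and those of Gas6 and Tnfsf13b 1 time each. Of the 34 called genes 30 matched a RefSeq promoter, and CAGAC on either strand was found in 9 of 22 promoters of genes that rose (40.9%) and 5 of 8 of genes that fell (62.5%), against 3274 of 8088 promoters of all genes tested (40.5%). The palindrome GTCTAGAC (0.161% of all promoters), the PU.1 letters GAGGAAGT (2.57%) and the AP-1 letters TGAGTCA (2.52%) were found in 0 of the 30. The promoter windows of Tmem176a and Tmem176b share 108 bases; they consist almost wholly of annotated exon bases and are not printed.

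Resting microglia genes showed 0 calls by edgeR, with 3 higher and 3 lower at unadjusted p under 0.05. Of 28 homeostatic genes tested, 13 were positive, the median was -0.01 and 26 had an interval within 1.5-fold. Tmem119 ranged from 2958 to 3254 CPM in GFP and from 3111 to 3789 CPM in TGFB1 microglia (log2 fold change 0.17, 95% interval 0.07 to 0.27, adjusted p = 0.230) and was the 1 member called by DESeq2 (adjusted p = 0.0169). Crybb1 (-0.56, -0.94 to -0.17, adjusted p = 0.403), Olfml3 (-0.18, adjusted p = 0.411), Ltc4s (-0.30, adjusted p = 0.609), Gpr84 (0.26, adjusted p = 0.681) and Golm1 (0.10, adjusted p = 0.749) had the next smallest p. The identity transcription factors had 0 calls among 20 tested by edgeR or DESeq2 (1 lower at unadjusted p under 0.05; median 0.04), with Maf at -0.23 (adjusted p = 0.729) and Bhlhe41 at 0.13 (adjusted p = 0.803).

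In the disease-associated list 4 of 31 genes rose (Csf1, Lgals3, Clec7a and Axl), 0 fell, 25 were positive and the median was 0.13, where 0.237% of all genes tested rose. All 4 of these calls ended with the covariate for other-cell markers, and those of Lgals3, Clec7a and Axl also with the one for ribosomal RNA. Itgax, the integrin CD11c, missed the threshold by little at 92.5 to 132 CPM (median 109) in GFP and 122 to 211 CPM (median 152) in TGFB1 microglia (log2 fold change 0.59, 95% interval 0.33 to 0.86, adjusted p = 0.0512), and was called by DESeq2 (adjusted p = 0.000608). Apoe, an abundant lipid carrier of this state, was at 0.18 (95% interval -0.06 to 0.42), Trem2 at -0.09 (-0.24 to 0.05) and Lpl at 0.67 (0.24 to 1.10, adjusted p = 0.357). Spp1, also a member, ranged from 167 to 391 CPM in GFP and from 310 to 1033 CPM in TGFB1 microglia, and its estimate was 0.75 without the highest library, TGFB1 replicate 2. Markers of other macrophages were low in both groups. The perivascular macrophage markers summed to 13.95 to 33.5 CPM (median 24.7) in GFP and 18.3 to 66.5 CPM (median 33.0) in TGFB1 microglia. Of these 10 markers 2 passed the filter on low counts, Siglec1 (0.82, adjusted p = 0.368) and Mrc1 (0.76, adjusted p = 0.823). The 12 monocyte markers summed to 34.0 to 122 CPM (median 60.5) and 63.7 to 150.1 CPM (median 79.9), and no marker of either list was at 0 in all 14 libraries. Of the 3 monocyte markers that passed the filter only Fn1 had a positive estimate. Fn1, also in the TGF-beta target list, had 533 counts in the GFP and 885 in the TGFB1 libraries together. Ccr2 had 130 and 107. The part of such macrophages and monocytes in the calls among macrophage genes was not tested.

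**Figure D5:**
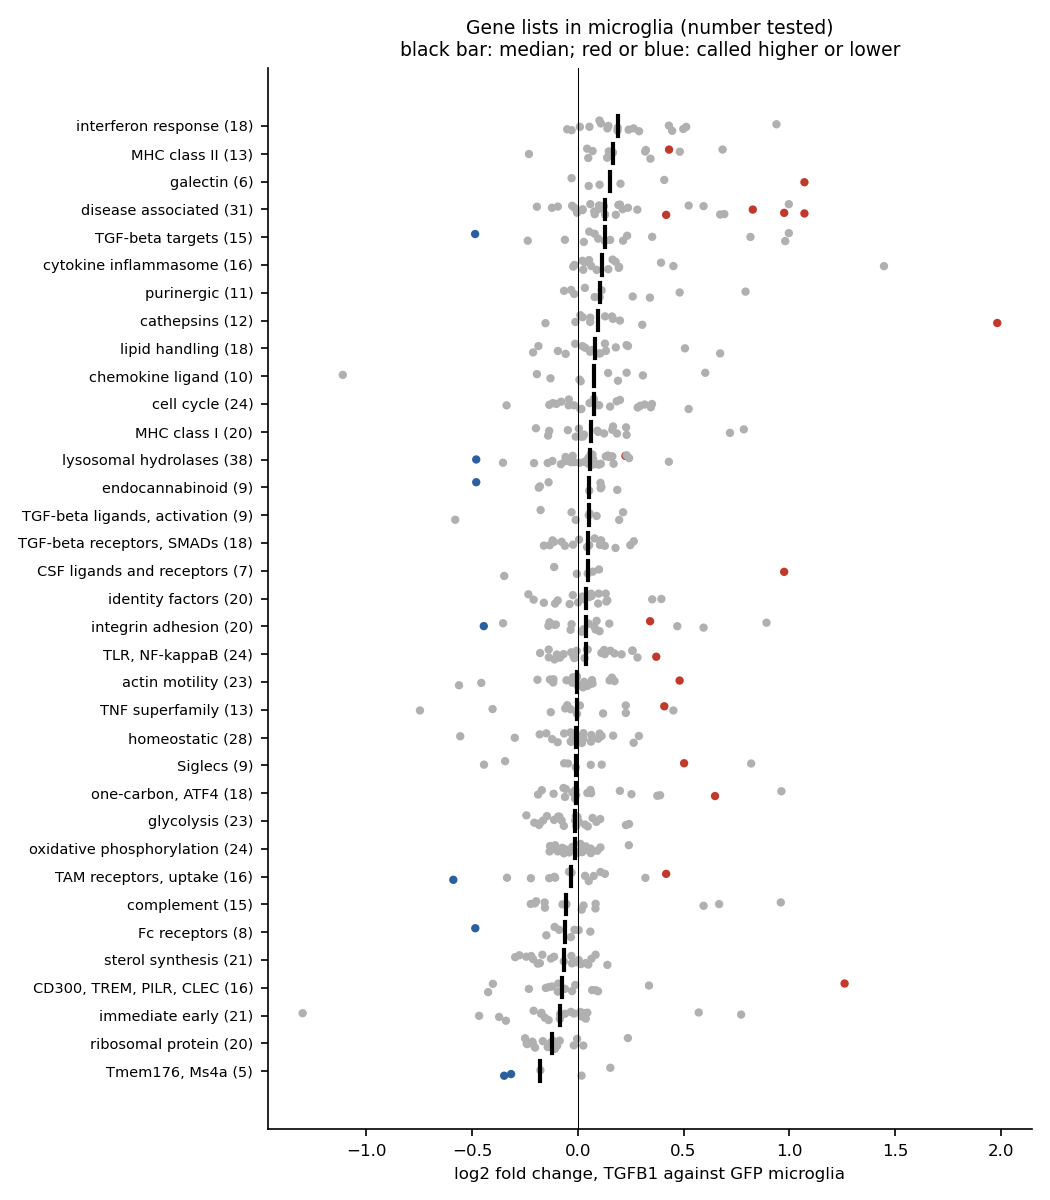
Log2 fold change of every tested gene in each of 35 gene lists (number tested in brackets), with the list's median as a black bar and called genes in red (higher) or blue (lower). The medians lie within 0.2 of 0 in all 35 lists, and single genes such as Ctsw, Cd300lb and Lgals3 stand apart from their lists.

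No list moved far as a whole. Over 35 gene lists, 18 held a called gene and 17 none; 20 medians were positive, and 0 were beyond 0.2 on the log2 scale. The 34 called genes include 21 that belong to a list and 13 that belong to none. The interferon response list had the highest median, 0.19, with 16 of 18 genes positive and 0 calls by edgeR or DESeq2 (2 higher at unadjusted p under 0.05); Ifi27l2a was at 0.43 (adjusted p = 0.411) and Oasl2 at 0.94 (adjusted p = 0.517). Cytokine and inflammasome genes had 14 of 16 positive (median 0.12) and 0 calls by either tool (1 higher at unadjusted p under 0.05), with Il1rn, the interleukin 1 receptor antagonist, at 4.24 to 9.10 CPM in GFP and 7.77 to 35.5 CPM in TGFB1 microglia (1.45, 95% interval 0.69 to 2.20, adjusted p = 0.161). Among chemokine ligands Ccl4 was at 0.60 (0.32 to 0.89, adjusted p = 0.0710) and was called by DESeq2 (adjusted p = 0.00263).

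On the other side, ribosomal protein genes had 2 of 20 positive (median -0.12), sterol synthesis genes 7 of 21 (median -0.07) and immediate early genes 7 of 21 (median -0.08). All 3 lists had 0 calls by edgeR, with 3, 3 and 1 members lower and 0, 0 and 2 higher at unadjusted p under 0.05. Egr2 (0.77, 95% interval 0.35 to 1.19, adjusted p = 0.156) and Dusp1 (-0.47, -0.77 to -0.17, adjusted p = 0.379) had the smallest p of the immediate early list, and DESeq2 called Dusp1 lower (adjusted p = 0.0210). Oxidative phosphorylation (24 genes, median -0.01) and glycolysis (23 genes, median -0.01) had 0 calls by edgeR or DESeq2 and 23 and 21 intervals within 1.5-fold, with 1 and 3 genes at unadjusted p under 0.05. Cell cycle genes had 16 of 24 positive and 0 calls by either tool (3 higher and 1 lower at unadjusted p under 0.05), with Mki67 at 0.35 (0.01 to 0.69) and Ccnd1 at -0.34 (-0.56 to -0.12). Markers of other cells gave 0 calls by edgeR or DESeq2 in 16 lists, 5 of which had no gene above the filter. At unadjusted p under 0.05, 4 of the 37 entries tested were higher and 1 lower, against 428 and 302 of all 10970 genes. The 4 came 1 each from the endothelial, monocyte, perivascular macrophage and dendritic cell lists, and the lower one was a B cell marker. DESeq2 gave an adjusted p to only 2 cone, 4 Mueller glia and 1 B cell marker of the 16 lists. The Mueller glia list had a median of -0.77 with 3 of 13 positive.

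A further 10 named genes did not overlap between the groups but were not called. Fam172a (42.3 to 54.4 CPM in GFP, 60.5 to 70.2 CPM in TGFB1 microglia; log2 fold change 0.38, adjusted p = 0.0512), Scarb1, a lipoprotein receptor (110 to 140 CPM, 82.7 to 105 CPM; -0.34, adjusted p = 0.0638), and Fhod1, a formin (20.7 to 22.7 CPM, 25.9 to 37.1 CPM; 0.52, adjusted p = 0.0710), were closest to the threshold. Cd84, a SLAM family receptor, was at 0.22 (adjusted p = 0.0927) and Gpr35 at 0.33 (adjusted p = 0.157). DESeq2 called Fam172a, Scarb1, Cd84, Gpr35 and Tctn1, did not call Cd52 and gave no adjusted p for the other 4. Selection of the 10 by non-overlap in the same libraries favours such calls. The remaining genes were Tctn1 (0.19), Coq10b (0.40), Tmem144 (0.59), Cd52 (0.21) and Tlk2 (-0.52), with adjusted p from 0.314 to 0.596.

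Most of the called genes had higher levels in microglia than in the rest of the retina. In GFP retinas 21 of the 26 genes that rose and 8 of the 8 that fell had a higher mean CPM in microglia than in non-microglia. Mthfd2, Dock9, Csf1, Lgals3 and Tspan7 did not. The same share over all genes tested was not computed, and all of them had passed a filter on the microglia libraries alone. These counts therefore do not set the called genes apart from the others. Clec7a, Cd300lb, Siglecf, Tlr13, Wfdc17 and Adgrg5 had 0 counts in all 4 non-microglia libraries. The difference of the TGFB1 effect between microglia and non-microglia was tested in 1 fit of all 18 libraries. It was called for 2 of 15321 genes (0.0131%), among them Tgfb1, and for 0 of the 34 by edgeR or DESeq2, so no effect was shown to be particular to microglia. Of the 34, Csf1 was called without the filter on low counts and 1 gene without GFP non-microglia replicate 2. At an unadjusted p under 0.05 it differed for 12 of the 34, against 4.64% of all genes, but the 34 were selected for an effect in the same microglia libraries; the 12 include Dock9 (difference of 1.04 log2 units, SE 0.22, adjusted p = 0.212) and Csf1 (1.47, SE 0.39, adjusted p = 0.669). With 2 non-microglia libraries per treatment this test can detect large differences only.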

How the data were processed

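The authors deposited a single table of raw, unnormalized counts with 54532 Ensembl genes as rows and 1 column for each library. Per the submitters' processing notes, STAR, featureCounts, DESeq2 and GRCm38.p6 were used; their versions, the annotation and the strand setting were not given in the sources used here. Of the identifiers, 54495 matched GENCODE M21. Counts were tested with edgeR 4.0.16 (R 4.3.3; TMM, filterByExpr, robust quasi-likelihood F test, treatment only) over the 14 microglia libraries. P-values were Benjamini-Hochberg adjusted over all genes tested, and the SE is the log2 fold change divided by the square root of F. The difference between fractions came from 1 fit of 4 groups. Reads carry no molecular identifiers, so counts are not molecules, and the floor covers counting error only.

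The libraries compared, the gene lists and the alternatives were chosen with earlier results of these data known. Lists have no test. Some results, 1 called gene among them, are not reported here. Named genes are all called genes, genes whose groups do not overlap, list members with the smallest p, and Tgfb1. Csf1r, Mertk, Pros1, H2-DMb1, H2-DMb2, H2-Ab1, Smad7, Skil, Pmepa1, Apoe and Trem2 were named beside them after their values were seen. Alternatives were other size factors, filters, dispersion and tools (DESeq2 1.42.0, limma 3.58.1 voom), a block for the replicate number, covariates, subsets and leaving out each library. The fits were tested on simulated data. Exon overlaps used bedtools 2.31.1, and no called gene shares 50% or more of its exon bases.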

Additional observations from a re-analysis of the deposited data

Results flagged for a closer look

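Among 222 groups of 7 libraries, 19 (8.56%) had a highest or lowest library far from the others by Dixon's criterion, where chance gives about 1 in 20. GFP replicate 2 was lowest for Wfdc17 (5.72 CPM), Atp5b (458 CPM) and Rps18 (57.2 CPM) and highest for Tgfb2 (20.03 CPM). It was also highest for the summed markers of amacrine cells (91.2 CPM), bipolar cells (202 CPM), endothelial cells (174 CPM) and erythroid cells (20.4 CPM). TGFB1 replicate 6 was highest for the markers of other retinal cells in sum (1191 CPM), amacrine cells (49.9 CPM) and eosinophils and mast cells (10.1 CPM). TGFB1 replicate 2 was highest for Fn1 (95.1 CPM) and pigment epithelium markers (22.7 CPM), TGFB1 replicate 8 for Ccl6 (243 CPM), and TGFB1 replicate 5 for Olfml3 (1555 CPM) and lowest for erythroid markers (0.382 CPM). GFP replicate 5 was highest for P2ry2 (17.3 CPM), GFP replicate 6 for cone markers (381 CPM) and GFP replicate 8 for Lpl (57.6 CPM).

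The effect of treatment on Tgfb1 differed between microglia and non-microglia by -11.2 log2 units (SE 0.80, edgeR adjusted p = 1.55e-08). This fitted value is no bound, since Tgfb1 had 0 counts in both GFP non-microglia libraries.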

How the results depend on the processing

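All 34 called genes kept their direction under every alternative, which their selection in the same libraries favours. The counts of calls (26 higher, 8 lower) moved. They were 43 and 14 by DESeq2 (adjusted p for 25 of the 34, all called) and 18 and 7 by limma voom (24 of the 34 still called). DESeq2 gave no adjusted p to Ctsw, Cd300lb, Lgals3, Wfdc17, Csf1, Clec7a, Mthfd2, Fgr and Dock9. Axl, Clec7a and Lgals3 were among the calls that limma voom lost. The counts were 40 and 16 with a covariate for Y genes and 11 and 4 in the fit of all 18 libraries. They were 8 and 7 with a covariate for the summed other-cell markers (14 of the 34 still called). With one for ribosomal RNA repeats the counts were 16 and 7 (21 still called), also after CT010467.1 was put among the repeats, which was chosen after seeing the data. They were 17 and 2 in libraries with Xist RNA, 1 and 2 in those with Y RNA, 3 and 1 in replicates 2 to 4, and 4 and 0 in replicates 5 to 8 (edgeR, 238 lower at unadjusted p under 0.05). Without a filter 39 rose and 25 fell, and without the 3 libraries farthest apart, chosen after seeing the data, 20 and 18. With a replicate block 41 rose and 19 fell, with Ccl4, Dusp1, Egr2, Fn1, Itgax, Lpl, Scarb1 and Tgfbr1 among the added calls and Wfdc17 lost; same-numbered libraries correlated by -0.12 to 0.22 and only 2 of 7 best with their own number, so the numbers were not taken as pairs, although the libraries of all 7 numbers matched in Xist or Y RNA. Ccl4, Dusp1, Egr2, Il1rn, Itgax, Lpl and Oasl2 were also called without a filter. Without 1 library 10 (without TGFB1 replicate 8) to 26 rose and 5 (without GFP replicate 3) to 14 (without GFP replicate 2) fell, and 15 to 30 of the 34 were still called. In all 14 such fits 15 genes kept their call, 11 of them also with the other-cell covariate, among them Capg, Ctsw, Gas6, H2-DMa, Lhfpl2, Mthfd2, Naaa, Tgfbi, Tmem176b and Tnfsf13b. The difference between fractions was called for 12 genes without a filter and for 1 to 2 without 1 library. Uncalled estimates turned for Tgfb2 (0.31 with the other-cell covariate, 0.34 in replicates 5 to 8, -0.97 to 0.050 without 1 library, highest without GFP replicate 2), Klf10 (0.16 in replicates 2 to 4) and Tgfb1 (-0.14 in libraries with Xist RNA, -0.0054 to 0.28 without 1 library, lowest without TGFB1 replicate 5). The cause of these moves was not tested, except that subsets hold fewer libraries.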
